A study of Mus musculus with 9 samples.

Results

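The let-7 and miR-98 family was examined in the tibialis anterior (TA) muscle of control mice and of mice bearing Lewis Lung Carcinoma (LLC) tumors. The members were the 9 guide (5p) arms mmu-let-7a-5p, mmu-let-7b-5p, mmu-let-7c-5p, mmu-let-7d-5p, mmu-let-7e-5p, mmu-let-7f-5p, mmu-let-7g-5p, mmu-let-7i-5p and mmu-miR-98-5p, chosen by name from the 1915 mature miRNAs counted and written here without the species prefix. The LLC line was derived from a lung carcinoma of a mouse, and mice of the LLC group carried tumors from cells placed under the skin of both flanks for 22 days. The control group received the carrier, phosphate-buffered saline (PBS), in the same places. There were 4 control mice (C1 to C4) and 5 LLC mice (L1, L2, L3, L5 and L6), 1 small RNA library each, and the sixth LLC library (L4) was not analysed here. The sample labels describe the mice as C57BL/6J and 10 weeks old at injection, the text of the series as male C57BL/10 and 8 weeks old, and neither names an engineered allele. Tumor cells injected under the skin are a graft of 1 cell line, so the model holds a single tumor type.

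let-7 miRNAs are among the most conserved small RNAs of animals. Their levels rise as cells leave the undifferentiated state, and they repress growth and metabolic genes, among them components of the insulin and Ras pathways. Each is cut from a hairpin precursor, of which the 5p arm is mostly kept as the guide and the 3p arm mostly discarded. The RNA-binding protein Lin28 holds back this maturation by binding the loop of the hairpin, and is itself a let-7 target. Because target choice rests mainly on the seed, the members are thought to share most of their targets.

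The mature sequences are shown because they set what the counts can tell apart. The sequences of the 9 members, from RefSeq on GRCm38.p6, are written 5′ to 3′ with the seed (bases 2 to 8) in capitals.
let-7a-5p: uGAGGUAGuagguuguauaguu
let-7b-5p: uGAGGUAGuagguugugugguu
let-7c-5p: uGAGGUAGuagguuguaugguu
let-7d-5p: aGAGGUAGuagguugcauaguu
let-7e-5p: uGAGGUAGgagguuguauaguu
let-7f-5p: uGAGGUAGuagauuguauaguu
let-7g-5p: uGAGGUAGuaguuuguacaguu
let-7i-5p: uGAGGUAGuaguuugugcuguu
miR-98-5p: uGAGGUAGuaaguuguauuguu
All 9 were 22 bases long and had the same seed. Relative to let-7a-5p, with positions counted from 1 at the 5′ end, let-7c-5p differed by A19G, let-7e-5p by U9G and let-7f-5p by G12A. let-7b-5p differed by A17G and A19G, and was thus 1 base from let-7c-5p. let-7d-5p was the only member with another first base, by U1A, and it also carried U16C. The other three differed from let-7a-5p by G12U and U18C (let-7g-5p), by G12U, A17G, U18C and A19U (let-7i-5p), and by G11A and A19U (miR-98-5p). Of the 36 pairs of members, 4 differed at 1 base and 10 at 2 bases. As sequences, all 9 were distinct once the first 19 bases were known. In the first 18 bases let-7a-5p and let-7c-5p were alike. In the first 16, let-7b-5p was also like them and let-7g-5p was like let-7i-5p. The mapping asked for an exact match in the first 8 bases only, kept all alignments of the best rank by those bases, and so did not by itself assign a full-length read to 1 member. In these 8 bases, 8 of the 9 members are alike and let-7d-5p differs. The number of reads counted at several members is unknown, but reads counted at both members of a pair cannot exceed the smaller count. For the pairs 1 base apart, the count of let-7e-5p was 3.98 to 4.99% of that of let-7a-5p in the 9 libraries, and that of let-7b-5p was 19.7 to 23.6% of that of let-7c-5p. The count of let-7a-5p was 26.0 to 33.0% of that of let-7f-5p, and that of let-7c-5p 57.4 to 67.1% of that of let-7a-5p. Reads shared up to these limits would enter the order, shares, ratios and correlations of the members that follow.

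Among the entries with a RefSeq sequence, 11 had this seed. The 2 outside the family, let-7k (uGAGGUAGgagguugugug, 19 bases) and miR-1961 (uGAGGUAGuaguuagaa, 17 bases), had 0 counts in each library. A count of 0 allows up to 3 counts, or 0.383 to 0.601 CPM (counts scaled to a common library size) before normalization, which covers counting error only. let-7j, whose sequence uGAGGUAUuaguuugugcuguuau has another base at the end of the seed, had 39 counts in the 9 libraries together, and miR-202-3p had 0.

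The members come from 12 hairpin genes on 7 chromosomes (GRCm38.p6, both ends given). Mirlet7a-1 (chr13:48538179-48538272), Mirlet7f-1 (chr13:48537829-48537917) and Mirlet7d (chr13:48536012-48536114) lie on the minus strand in an exon of the long noncoding RNA gene 6720427I07Rik, with 261 bp between the first pair and 1714 bp between Mirlet7f-1 and Mirlet7d. Mirlet7c-2 (chr15:85706603-85706697) and Mirlet7b (chr15:85707319-85707403) lie 621 bp apart in exons of Lncppara. On chromosome X, Mirlet7f-2 (chrX:151912346-151912428) and Mir98 (chrX:151913214-151913321) lie 785 bp apart in introns of Huwe1, a ubiquitin ligase gene. Mirlet7a-2 (chr9:41536716-41536811) lies in an intron of the noncoding 3110039I08Rik, Mirlet7c-1 (chr16:77599657-77599750) in an intron of Mir99ahg, Mirlet7e (chr17:17830352-17830444) in an intron of Spaca6 and Mirlet7g (chr9:106178840-106178927) in an intron of Wdr82. Mirlet7i (chr10:122985640-122985724) overlaps an exon of D630033A02Rik. let-7a-5p, let-7c-5p and let-7f-5p each come from a pair of genes, so the gene of origin of their reads is unknown. The letters GGAG, the motif the zinc knuckles of Lin28 are known to bind, were searched on the hairpin's own strand between the 2 arms. They were present in 9 of the 12 family hairpins (75%) and absent from that window of Mirlet7b, Mirlet7c-2 and Mir98, against 53 of 645 hairpins of all kinds with both arms annotated (8.22%).

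The libraries held 4992339 to 7833161 counts. After normalization with edgeR's TMM factors (0.762 for L5 to 1.15 for C2), 304 miRNAs were tested, those that exceeded 32 counts in any library. L5 and L1 had the lowest factors (0.762 and 0.876). Of the muscle miRNAs, miR-133a-3p had 17440 to 25203 CPM in the 9 mice, while miR-1a-3p had 10.5 to 27.9 CPM and miR-206-3p 0 to 3 counts. The summed CPM of the 7 muscle fibre miRNAs was 77619 to 102500 in the control group and 85388 to 125070 in the LLC group, and of the 6 that passed the expression minimum 5 had a log2-fold change below 0 and 1, miR-486a-5p, above 0 (0.20, standard error 0.189). With a mean of 72081 CPM over the 9 mice, miR-486a-5p was the largest part of that sum. The summed CPM of 3 erythroid miRNAs (miR-451a and both arms of miR-144) was 215 to 325 in the control group and 92.4 to 220 in the LLC group, that of 5 leukocyte miRNAs 691 to 800 and 583 to 742, and that of 2 endothelial miRNAs 26211 to 33929 and 24162 to 29972. That of 2 fibroblast miRNAs was 1745 to 2172 and 1594 to 3146, and that of 2 smooth muscle miRNAs 49377 to 65094 and 50948 to 94775. Directions differed within both pairs. The log2-fold change was 0.08 for miR-199a-3p and -0.26 for miR-214-3p (fibroblast). It was 0.34 for miR-143-3p and -0.10 for miR-145a-5p (smooth muscle). In edgeR none of the marker miRNAs was called. At an unadjusted p of at most 0.05, the 3 erythroid miRNAs and 1 of the 2 endothelial ones (miR-126a-3p, log2-fold change -0.31) were lower in the LLC group. Of the 5 leukocyte miRNAs 4 had a log2-fold change above 0. In each direction 1 passed that p, miR-223-3p at 0.70 and the more abundant miR-150-5p at -0.38. The groups did not overlap for these 2 leukocyte miRNAs and for 2 of the 3 erythroid ones. Of all 304 miRNAs, 5.26% were higher and 11.2% lower at that p, and 5 were higher and 13 lower without overlap. The part of these other cell types in the results that follow was not tested.

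let-7f-5p was the most abundant member. Control mice had 12446 ± 1000 CPM (SD, n = 4) and LLC mice 14126 ± 1111 CPM (SD, n = 5), rank 16 of the 304 miRNAs. let-7a-5p followed with 3611 ± 259 and 4140 ± 282 CPM (rank 20), then let-7i-5p with 2693 ± 255 and 2937 ± 313 CPM and let-7c-5p with 2302 ± 148 and 2483 ± 229 CPM. The middle of the order was held by let-7g-5p with 1455 ± 144 and 1510 ± 124 CPM and let-7d-5p with 1094 ± 83.2 and 1312 ± 74.5 CPM. let-7b-5p had 525 ± 43.9 and 542 ± 58.3 CPM, miR-98-5p 233 ± 1.27 and 272 ± 31.7 CPM, and let-7e-5p, the least abundant, 172 ± 17.6 and 182 ± 1.87 CPM. The lowest count of any member in any library was 932. The order held in all 9 mice for 6 of the 8 neighbouring pairs. It held in 8 of 9 mice for let-7i-5p over let-7c-5p and for let-7g-5p over let-7d-5p, and the ranges of these neighbours overlapped in the LLC group. Counts of different mature miRNAs also carry differences in adapter ligation, and reads may be shared between members, so this is an order of counts.

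**Figure D1:**
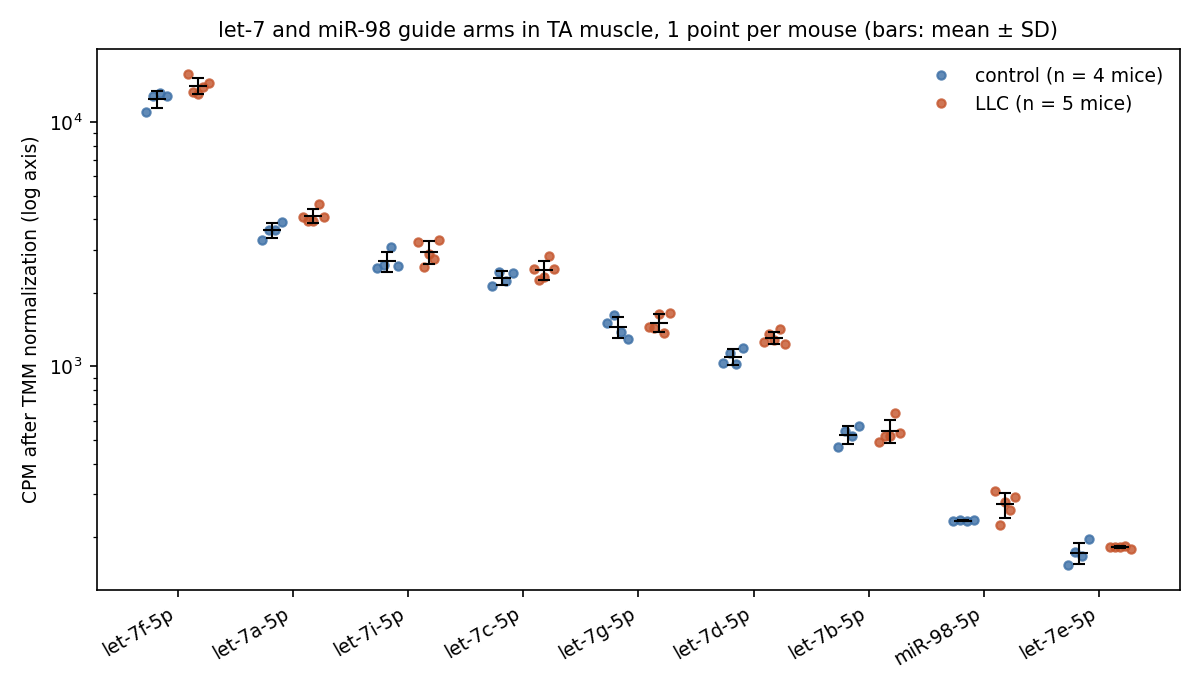
CPM of the 9 guide arms after TMM normalization (log axis), 1 point per mouse, with the mean and SD of the 4 control and 5 LLC mice beside it. The points span about 2 orders of magnitude between members, from 153 CPM for let-7e-5p in C1 to 15792 CPM for let-7f-5p in L1, and much less between mice.

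Whether the family differed between cachectic and control muscle was asked first for its total. Of all counts, the 9 members held 2.42 to 2.91% in control mice and 2.14 to 3.16% in LLC mice (means 2.61 ± 0.209%, n = 4, and 2.64 ± 0.373%, n = 5). L5 had the lowest share of all mice and L6 the highest, so the groups overlapped. After TMM normalization the total was 22299.7 CPM in C1, 25209.6 in C2, 25424 in C3 and 25196 in C4. It was 29319.7 CPM in L1, 25695 in L2, 26085 in L3, 28088 in L5 and 28336 in L6. On this scale each LLC mouse lay above each control mouse, L2 only just above C3, and the groups overlapped when C2, C4, L3 or L6 was left out and the factors were recomputed. The mean log2 total was 0.17 higher in the LLC group, against a pooled SD between mice of 0.0856, and only 0.010 higher when library totals were used without factors. Without L1 and L5 the difference was 0.16. In RNA of whole muscle, fewer cells of a type and less RNA per cell cannot be told apart.

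For single members, all 9 had a log2-fold change above 0 with TMM factors, as did 46.4% of the 304 miRNAs tested. The median was 0.13 over the members and -0.023 over all 304. None of the 9 passed an adjusted p of at most 0.05 with a fold change of at least 1.5 in edgeR's quasi-likelihood test, and neither did any other miRNA (0% of the 304). DESeq2's Wald test called 7 of the 304 (2.3%) and 0 of the 9 members. At an unadjusted p of at most 0.05 in edgeR, 1 member was higher (let-7d-5p) and 0 lower, against 5.26% of all miRNAs higher and 11.2% lower. The CPM of 2 members (let-7a-5p and let-7d-5p) did not overlap between the groups, both higher in the LLC group, against 1.64% of all miRNAs in that direction and 5.92% in either. With library totals alone the directions of let-7b-5p, let-7c-5p, let-7e-5p, let-7g-5p and let-7i-5p turned, and the groups overlapped for all 9 members. The median log2-fold change of all 304 miRNAs then was -0.17, so the whole table shifted. Relative to that median, the members' median lay 0.16 higher with library totals and 0.15 higher with TMM factors. A change of scaling moves all miRNAs nearly alike, so the likeness of these 2 values was largely fixed in advance.

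let-7d-5p had the largest log2-fold change of the family. Its CPM was 1031 in C1, 1133 in C2, 1019 in C3 and 1193 in C4. In the LLC group it was 1258 in L1, 1358 in L2, 1287 in L3, 1419 in L5 and 1240 in L6. The lowest LLC mouse, L6, lay above the highest control mouse, C4. The log2-fold change was 0.26 (standard error 0.102, 95% interval 0.046 to 0.48), and the adjusted p was 0.246 (edgeR, Benjamini-Hochberg adjustment over the 304 miRNAs). The two-sided exact permutation test on log2 CPM gave p = 0.00794, the smallest that the 126 splits of 9 mice allow, and 0.329 after adjustment over the 304. Groups that do not overlap nearly fix this p, so it largely restates the lack of overlap. With library totals alone the log2-fold change was 0.11 (unadjusted p = 0.515, edgeR), with CPM of 971 to 1306 in the control group and 1081 to 1381 in the LLC group. With the replicate number as a block it was 0.30 (adjusted p = 0.706, edgeR), and over all alternatives the adjusted p ranged from 0.106 to 0.771.

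let-7a-5p, which shares the long noncoding host of let-7d-5p through Mirlet7a-1, had 3287 CPM in C1, 3630 in C2, 3604 in C3 and 3921 in C4. In the LLC group it had 4110 CPM in L1, 3927 in L2, 3942 in L3, 4621 in L5 and 4101 in L6. The margin between the groups was narrow, with L2 and L3 just above C4. The log2-fold change was 0.20 (standard error 0.107, 95% interval -0.030 to 0.43), with an adjusted p of 0.326 in edgeR. The two-sided exact permutation test gave p = 0.00794 (0.329 after adjustment over the 304), which again largely restates the lack of overlap. The log2-fold change was 0.16 without L5 and 0.046 with library totals alone.

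let-7f-5p, the third guide of the chromosome 13 gene group, had 10971 CPM in C1, 12822 in C2, 13195 in C3 and 12797 in C4. It had 15792 CPM in L1, 13247 in L2, 13032 in L3, 14008 in L5 and 14549 in L6, so all LLC mice but L3 exceeded the highest control mouse. The change was 0.18 on the log2 scale (standard error 0.121), with an adjusted p of 0.409 in edgeR. Exact permutation (two-sided) gave p = 0.0397, and 0.366 after adjustment over the 304. With library totals alone the change was 0.037.

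miR-98-5p had close values in the control group with TMM factors, at 232.5 CPM in C1, 234.8 in C2, 232.3 in C3 and 234.3 in C4. Before normalization they ran from 221 to 271 CPM (SD 23.3, n = 4), so the closeness depends on the scaling. It is also below the counting error of 1186 to 1773 counts, and is not read as a trait. With TMM factors miR-98-5p varied more in the LLC group, with 307.5 CPM in L1, 225.1 in L2, 278.2 in L3, 258.4 in L5 and 290.6 in L6. L2 lay below all controls and the other 4 LLC mice above them. The log2-fold change was 0.22 (standard error 0.113), with an adjusted p of 0.296 in edgeR, and exact permutation (two-sided) gave p = 0.0794. With library totals alone it was 0.076.

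The changes of the other 5 members were smaller than their standard errors or close to them. For let-7i-5p the log2-fold change was 0.13 (standard error 0.115), for let-7c-5p 0.11 (0.108), for let-7e-5p 0.079 (0.107) and for let-7g-5p 0.053 (0.109). let-7b-5p had the smallest, 0.046 (standard error 0.112, adjusted p = 0.818, edgeR). In the control group let-7b-5p had 467.1 CPM in C1, 544.6 in C2, 518.6 in C3 and 569.8 in C4. In the LLC group it had 492.4 CPM in L1, 520.0 in L2, 520.0 in L3, 642.5 in L5 and 535.9 in L6, so that only L5 lay outside the control range. Without L5 its log2-fold change was -0.021. Single mice also moved the others: let-7e-5p ran from 0.028 (without C1) to 0.16 (without C4), and let-7g-5p from 0.019 (without C4) to 0.13 (without C2). let-7c-5p ran from 0.057 (without L5) to 0.16 (without L3), and let-7i-5p from 0.091 (without L1) to 0.19 (without C3). The 95% intervals of the fold changes had upper ends between 1.22 (let-7b-5p and let-7g-5p) and 1.39 (let-7d-5p) and lower ends between 0.876 and 1.03, so a change of 1.5-fold lay outside all 9 intervals with TMM factors.

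**Figure D2:**
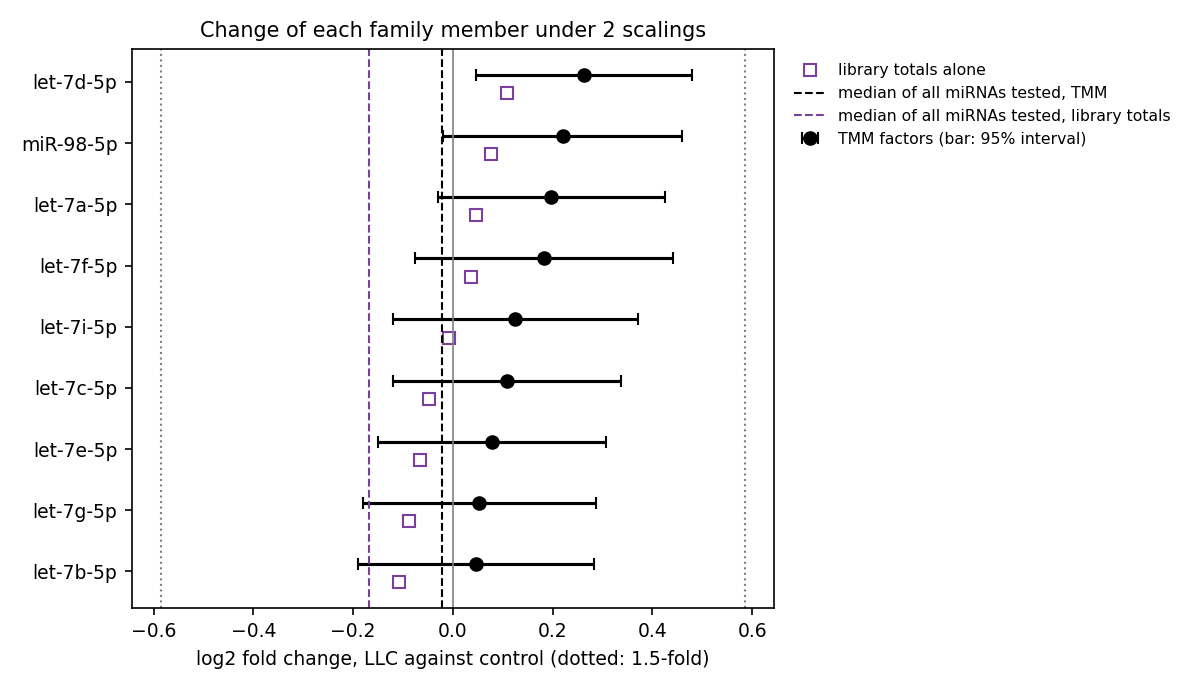
Log2-fold change of each member, LLC against control (horizontal axis), with TMM factors and 95% intervals (filled circles) and with library totals alone (open squares). Dashed lines mark the median of all 304 miRNAs under each scaling, -0.023 and -0.17, and all 9 members lie to the right of the line of their own scaling.

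The composition of the family was compared as the share of each member in the family total, which does not depend on the scaling of the libraries but takes in any reads counted at several members. let-7f-5p made up 49.2 to 51.9% of the family in the control group and 49.9 to 53.9% in the LLC group. let-7a-5p held 14.7 ± 0.608% (SD, n = 4) and 15.1 ± 0.924% (SD, n = 5), let-7i-5p 11.0 ± 0.875% and 10.7 ± 0.796%, and let-7c-5p 9.39 ± 0.412% and 9.03 ± 0.618%. For let-7g-5p the shares were 5.96 ± 0.778% and 5.51 ± 0.582%, for let-7d-5p 4.47 ± 0.320% and 4.79 ± 0.434%, and for let-7b-5p 2.14 ± 0.0953% and 1.98 ± 0.221%. miR-98-5p held 0.954 ± 0.0593% and 0.987 ± 0.0842%, and let-7e-5p 0.702 ± 0.0516% and 0.663 ± 0.0401%. The 95% Wilson interval of a share in 1 mouse reached at most 0.274 percentage points to either side. All 9 shares overlapped between the groups, while 7.57% of the 304 miRNAs, expressed as percent of the family total, did not. The members make up this total, so their shares are tied to it by construction, while those of the other miRNAs are not. The percentages over the 304 here and in the next test are thus not a like background. With the family total as library size in edgeR's quasi-likelihood test, 0 of the 9 members were called (0.987% of the 304 were) while none passed an unadjusted p of 0.05 (24% of the 304 did). Their log2 changes relative to the family ran from -0.12 for let-7b-5p (unadjusted p = 0.354, edgeR) to 0.10 for let-7d-5p (unadjusted p = 0.405, edgeR).

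**Figure D3:**
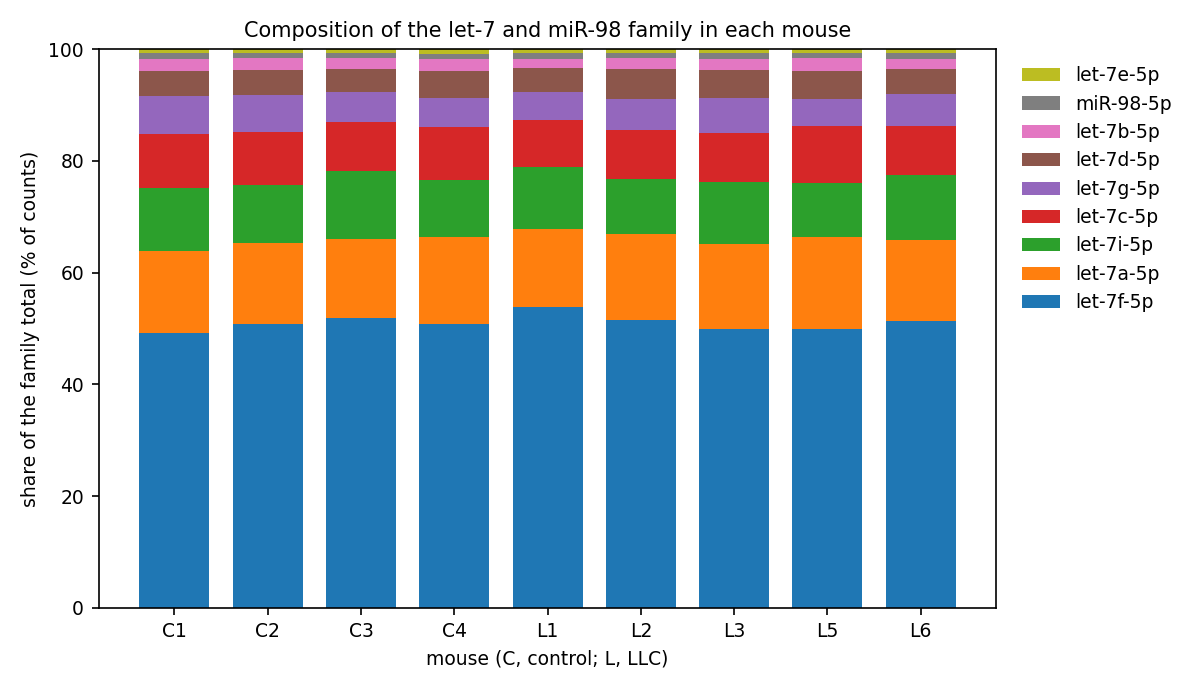
Share of each member in the family total (percent of counts, stacked from 0 to 100) for the 4 control mice (C) and 5 LLC mice (L). let-7f-5p takes 49.2 to 53.9% of every bar, and let-7f-5p, let-7a-5p and let-7i-5p together take 75.2 to 78.9%.

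Ratios of 2 members within a library are also free of the scaling, with the same limit on shared reads. Of the 36 ratios, 5 did not overlap between the groups (13.9%), against 5.29% of the 46056 ratios of any 2 of the 304 miRNAs. The 36 ratios share members and libraries and are not independent of each other. All 5 set let-7d-5p or let-7a-5p against let-7b-5p, let-7c-5p or let-7e-5p. The ratio of let-7a-5p to let-7b-5p was 6.67 to 7.04 in the control group and 7.19 to 8.35 in the LLC group. let-7a-5p over let-7c-5p, which differ by A19G, was 1.57 ± 0.0638 (SD, n = 4) and 1.67 ± 0.0507 (SD, n = 5), with 1.625 in the highest control mouse and 1.628 in the lowest LLC mouse. For let-7d-5p over let-7e-5p the ratio was 6.10 to 6.72 and 6.92 to 7.71. let-7b-5p over let-7d-5p was 0.480 ± 0.0229 and 0.413 ± 0.0292, and let-7c-5p over let-7d-5p 2.11 ± 0.0770 and 1.89 ± 0.159. In the last pair of ratios the groups nearly touched, at 0.453 on both sides and at 2.023 against 2.021. These 5 ratios were chosen after their values were seen.

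**Figure D4:**
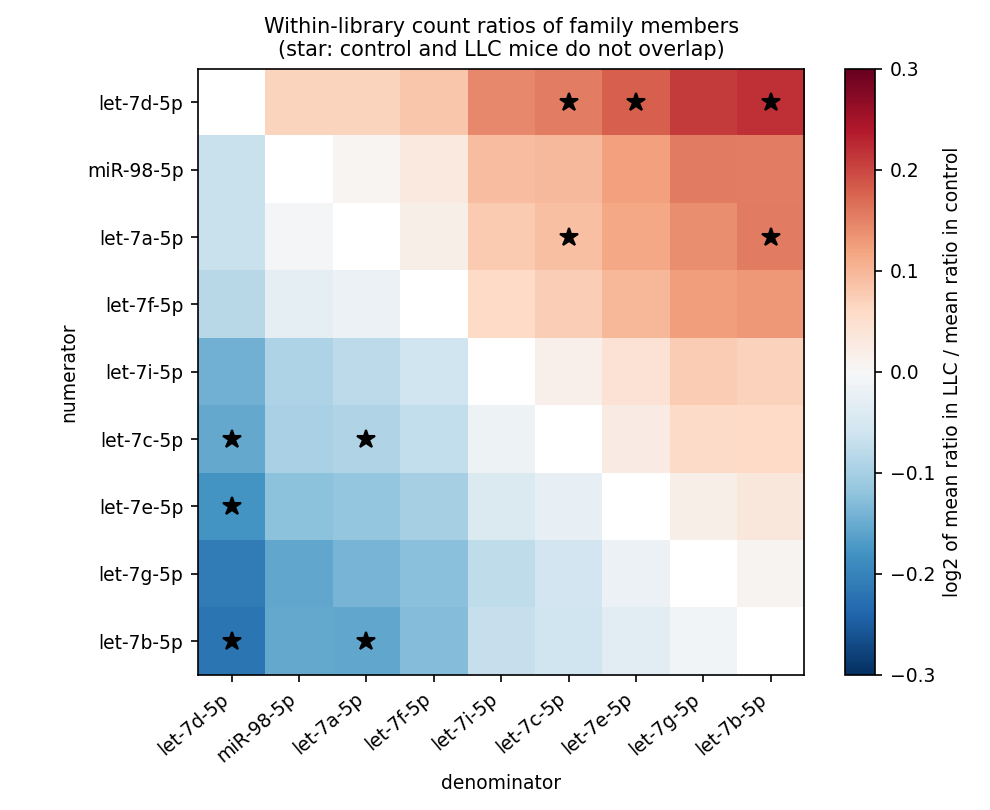
Log2 of the mean within-library ratio in LLC mice over that in control mice for each pair of members (row over column, red higher and blue lower in the LLC group), with stars where the mice of the groups did not overlap. The stars join let-7d-5p with let-7b-5p, let-7c-5p and let-7e-5p, and let-7a-5p with let-7b-5p and let-7c-5p.

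Across the 9 mice the members did not vary as one. Over the 36 pairs, Pearson's r of log2 CPM had a median of 0.499 and ran from -0.342 to 0.875, as a description over 9 mice that share their normalization and members that may share reads. let-7a-5p went most closely with let-7d-5p (0.875) and let-7c-5p (0.875). miR-98-5p went most closely with let-7i-5p (0.790) and let-7f-5p (0.737). let-7g-5p stood apart, with a median r of -0.084 to the other 8 and 6 of the 8 below 0. It had 1298 CPM in C4 and 1373 in L5, its lowest values, and 1650 in L6, 1633 in L3 and 1627 in C2, its highest. Outside the family, the highest r of log2 CPM with the family total over the 9 mice were those of miR-324-5p (r = 0.842), miR-29b-3p (0.824), miR-196a-5p (0.822), miR-3057-5p (0.814) and miR-351-5p (0.811). All of these had log2-fold changes above 0, from 0.25 for miR-351-5p to 0.73 for miR-29b-3p, and adjusted p of 0.0812 to 0.446 (edgeR). In the family total each LLC mouse lay above each control mouse, so this direction is largely set by how these miRNAs were chosen.

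The passenger (3p) arms give a second reading of the same hairpins. Of 12 arms in the tables, 6 passed the expression minimum. In edgeR, 0 of these 6 were called (0% of the 304), and 5 had a log2-fold change above 0, against 46.4% of the 304. These 5 include let-7a-1-3p and let-7c-2-3p, which are 1 measurement (below). let-7d-3p was by far the most abundant, rank 65 of the 304 miRNAs. It had 403.1 CPM in C1, 330.7 in C2, 397.0 in C3 and 340.8 in C4, and 495.9 in L1, 419.6 in L2, 521.1 in L3, 458.2 in L5 and 398.9 in L6. The LLC mice were higher except L6, which lay between C3 and C1. The log2-fold change was 0.32 (standard error 0.117), with an unadjusted p of 0.0158 and an adjusted p of 0.217 in edgeR, and exact permutation (two-sided) gave p = 0.0238. With library totals alone it was 0.17 (unadjusted p = 0.345, edgeR), and in fits that each lacked 1 mouse it stayed between 0.29 and 0.39.

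let-7a-1-3p and let-7c-2-3p have the same sequence (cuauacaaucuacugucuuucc), and their counts were identical in each library (1311 in all), so they are 1 measurement. Its log2-fold change was 0.24 (standard error 0.163). For let-7b-3p it was 0.14 (0.162), for let-7i-3p 0.24 (0.198), and for miR-98-3p, at 8.50 ± 1.81 CPM (SD, n = 4) and 6.99 ± 1.94 CPM (SD, n = 5), -0.27 (0.231). The other 6 passenger arms had at most 32 counts in any library.

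The passenger share of both arms was computed per guide, pooling both hairpins of let-7a, let-7c and let-7f, and differed widely between guides. For let-7d it was 25.2 ± 3.27% (SD, n = 4) and 25.9 ± 2.45% (SD, n = 5). For miR-98 it was 3.51 ± 0.728% and 2.51 ± 0.616%, and for let-7b 2.81 ± 0.174% and 3.03 ± 0.618%. For let-7f, the most abundant guide, it was 0.0197 to 0.0407% in the 9 mice, with 232 passenger counts beside 787941 guide counts in all. let-7g had 0.0625 to 0.151%. For let-7a and let-7c, most passenger counts are those of the shared sequence, so their shares are not separate. The groups overlapped for all 9 guides.

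**Figure D5:**
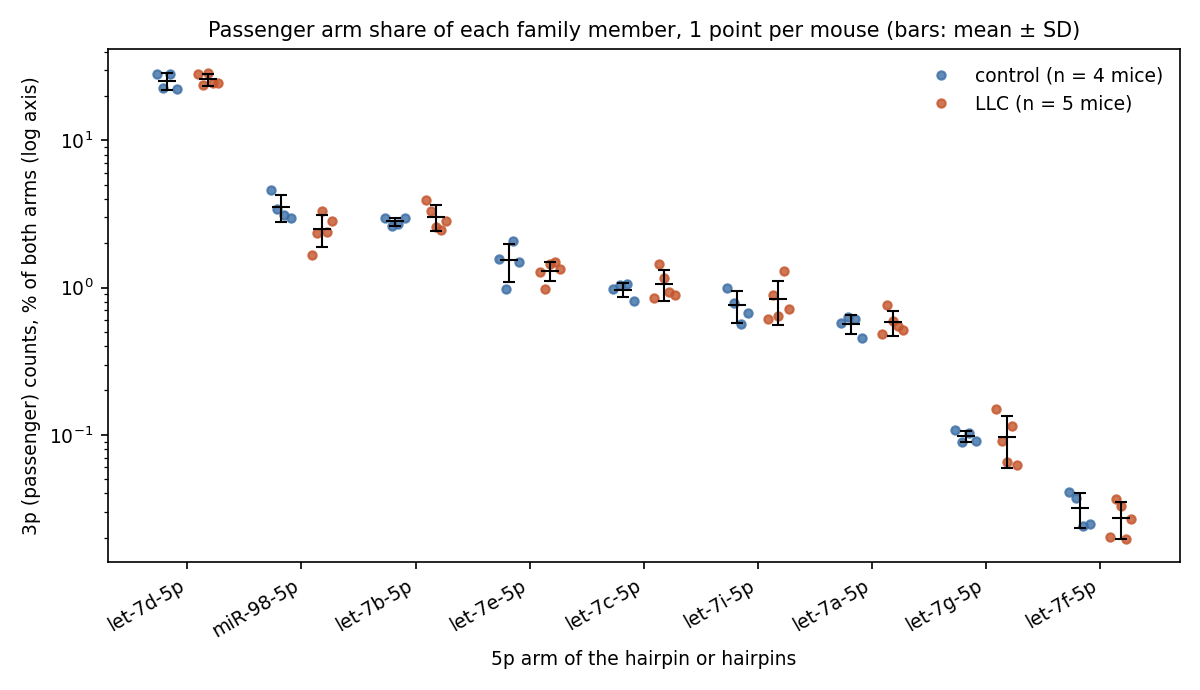
Passenger (3p) counts as percent of the counts of both arms (log axis) for each guide, 1 point per mouse with mean and SD of 4 control and 5 LLC mice. let-7d lies at 22.2 to 28.8% and let-7f at 0.0197 to 0.0407%, and the control and LLC points overlap for every guide.

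The miR-99, miR-100 and miR-125 miRNAs are made from the same host transcripts as let-7a-2, let-7c-1 and let-7e. Of 11 arms in the list, 9 passed the minimum, 4 with a log2-fold change above 0 and 5 below, and their median was -0.019, against -0.023 over all 304 miRNAs. In edgeR 0 of the 9 were called (0% of the 304) and 0 passed an unadjusted p of 0.05 (16.4% of the 304 did). All overlapped between the groups, while 5.92% of the 304 did not. Beside let-7e, miR-99b-5p had a log2-fold change of 0.44 (standard error 0.259) and miR-125a-5p of -0.019 (0.137), against 0.079 (0.107) for let-7e-5p itself.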

How the data were processed

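Small RNA libraries (TruSeq Small RNA kit, 50-base single-end reads, 1 lane) of the TA muscle of 9 mice were used. The authors mapped the reads to miRBase version 21 with Bowtie, allowing 0 mismatches in the first 8 bases and keeping all best alignments, so that a read can count at several members. The deposited values are raw counts, 1 table a library, neither normalized nor filtered. The counting tool for miRNAs is not given in the sources used here.

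The quasi-likelihood F test of edgeR 4.0.16 (R 4.3.3, TMM factors) was fitted to the 304 miRNAs that exceeded 32 counts in any library. Calls required a 1.5-fold change at an adjusted p of 0.05 or less. Exact two-sided permutation tests used log2 CPM (prior count 2) and all 126 splits of the mice. For shares, the family total of each library replaced its library size. Adjusted p-values were computed over the whole table by the Benjamini-Hochberg method. Any p-value not marked as adjusted, including those of the permutation tests, is unadjusted. The alternatives were other scalings, filters, DESeq2 1.42.0, limma 3.58.1 with voom, a replicate block and leaving out mice. Tests were checked on simulated data with planted changes of 1.5-fold or more, which did not cover changes as small as those of the members. Members and lists were chosen with earlier results of these data known. The miRNAs named are the members, their passenger arms, locus partners, seed relatives and the 5 with the highest r to the family total. Those with the lowest r were added after the results were seen. Beside them are markers of cell types, some chosen for naming after their values were seen. Members with the highest and lowest change or with groups apart have values per mouse. Values per mouse of other members were added after the results were seen. Sequences are from RefSeq (1623 of 1915 entries matched), and host genes from GENCODE on the same build. Figures used Python 3.11.15 and matplotlib 3.10.9.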

Additional observations from a re-analysis of the deposited data

Results flagged for a closer look

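In 6 of 40 groups of values, 1 mouse lay far from the others of its group by Dixon's test at the 95% level, a test that chance passes in about 1 of 20 groups. After TMM normalization, C1 had the lowest family total of the control group, 22299.7 CPM against 25196 to 25424 CPM in the other three. C3 had the highest let-7i-5p of the control group, 3071 CPM against 2519 to 2609 CPM. L5, the library with the lowest TMM factor (0.762), had the highest let-7a-5p of the LLC group, 4621 CPM against 3927 to 4110 CPM. As a share of the family total, let-7c-5p was highest in L5 of the LLC group, at 10.1% against 8.54 to 8.87%. In the control group let-7c-5p was lowest in C3, at 8.78% against 9.54 to 9.67%, and miR-98-5p was highest in C1, at 1.04% against 0.914 to 0.931%.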

How the results depend on the processing

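The 9 members stayed uncalled under all 19 alternatives, and all 9 lay above the median of all miRNAs tested under each. A change of scaling moves all miRNAs nearly alike, so under the other scalings this position was largely fixed in advance. The remaining alternatives reuse the same libraries. With library totals alone, the log2-fold changes turned to -0.11 for let-7b-5p, -0.049 for let-7c-5p, -0.065 for let-7e-5p, -0.088 for let-7g-5p and -0.0084 for let-7i-5p, and the log2 difference of the family total was 0.010. The members with an unadjusted p of at most 0.05 numbered 1 in the main analysis and 3 with RLE factors, DESeq2 or filterByExpr. They numbered 0 with library totals alone or with totals without the 5 most abundant miRNAs. With each mouse left out in turn they numbered 0 to 2 (0 without C1 or C3, 2 without C4 or L2). That p was passed by 50 of the 304 miRNAs in the main analysis, 55 with RLE factors and 54 with DESeq2. It was passed by 60 of 357 with filterByExpr, 41 with library totals alone and 42 with totals without the 5 most abundant. With each mouse left out it was passed by 30 to 74 (46 without C4, 68 without L2). Calls over all miRNAs numbered 0 in the main analysis, 7 with DESeq2, 22 without the filter, 1 without L1 and L5 together, and 0 to 8 with each mouse left out (8 without L3, 1 without L1). With each mouse left out, the log2-fold change of let-7b-5p ran from -0.021 (without L5) to 0.10 and was also below 0 without C1, at -0.0048. Relative to the family total, that of let-7f-5p ran from -8.4e-05 (without L1) to 0.029 and that of let-7i-5p from -0.076 to 0.0066 (above 0 without C3). The family total difference ran from 0.12 to 0.20. Control and LLC mice 1 to 3 share only a number: the correlations of their deviations were -0.231, -0.0899 and -0.249, and no mouse went best with its own number. Number 4 occurs only in the control group, and 5 and 6 only in the LLC group. The fit with a replicate block thus contrasts only mice 1 to 3 of each group. With this block, 0 miRNAs and 0 members were called, and 15 miRNAs had an unadjusted p of at most 0.05 against 50 without it. The cause of these differences was not tested. Each member had 932 or more counts in each library. The passenger arms of let-7g and let-7f-2, with at most 13 counts per library, were too low to compare.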
